A study of Mus musculus with 24 samples.

Results

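The 9 genes described here carry the retinoic acid (RA) signal in mouse embryonic stem cells (ESCs) from uptake to target: the RA receptors Rara, Rarb and Rarg, the retinol transporter Stra6, the RA-binding proteins Crabp1 and Crabp2, the clearance enzymes Cyp26a1 and Dhrs3, and the target Meis2. They were taken by symbol from a table of 54242 gene symbols measured by RNA-seq in 24 libraries of CGR8 ESCs, a mouse line of embryonic origin that grows with serum and LIF. There were 8 groups of 3 libraries. Day 0 cells were kept in serum and LIF, and day 4 cells had 4 days of 10 nM RA. At each time point, cells had received a pool of non-targeting siRNAs (si-CTL) or of siRNAs against Rsl24d1 (si-Rsl24d1), a ribosome biogenesis factor of the large subunit. Each of these was collected without rescue or with rescue, that is, with doxycycline, which induces an ectopic Rsl24d1 that the siRNAs do not target. Per the labels, cells without doxycycline carried an empty vector and cells with it the RSL24D1 vector, whereas the study's methods describe a single puromycin-selected line for both, and RA medium is given with LIF in the design text and without LIF in the methods. The design text calls the triplicates independent without saying how, so p-values measure the spread between these libraries.

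RA is made from retinol in cells that take it up, and reaches the nucleus bound to small carrier proteins. There it binds RA receptors, which sit on DNA as dimers with retinoid X receptors and switch from corepressors to coactivators when RA is bound. Several first targets of the receptors are parts of the pathway itself, among them a receptor gene, carriers and the enzymes that remove RA, so the response can limit its own signal. In ESCs, RA is a standard trigger of exit from self-renewal.

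Levels are in TPM, a share of all transcripts that is corrected for transcript length and can be compared between genes. Changes are differences of log2(TPM + 1), and adding 1 makes the change of a gene near or below 1 TPM, such as Rarb or Stra6, look smaller than its TPM ratio. Groups were compared with limma over 16447 genes that averaged 0.5 or more in log2(TPM + 1), with Benjamini-Hochberg adjusted p-values. A gene was called when its adjusted p was below 0.01 and its change over 1.8-fold on that scale, which is 0.848 in log2. All 9 genes passed the filter, Rarb (mean 0.51) and Stra6 (mean 0.53) only just. Both were highest in day 4 libraries labelled si-Rsl24d1 without rescue (means 1.23 and 0.90) and would not have passed without that group. Tests of Rarb and Stra6 that use this group are therefore not independent of the filter, though with no filter their calls were the same.

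Rsl24d1, the targeted gene, checked the labels at day 0 but not at day 4. At day 0 without rescue it was at 148, 139.7 and 136 TPM with si-CTL and at 36.6, 37.9 and 32.7 TPM with si-Rsl24d1 (log2 change -1.95, adjusted p 3.24e-14 in limma). At day 4 the levels without rescue were 95.9, 101 and 96.7 TPM with si-CTL and 89.3, 96.3 and 99.8 TPM in the libraries labelled si-Rsl24d1, and these overlap (log2 change -0.04, adjusted p = 0.66 in limma). Day 4 differences below are therefore between libraries by their siRNA label, in cells whose Rsl24d1 mRNA was not lower. A knockdown that had recovered by day 4 and a mix-up of labels cannot be told apart from these values. Endogenous and ectopic transcripts share the symbol. The defining ESC markers were present on both days. In si-CTL cells without rescue, summed pluripotency markers were at 2389 to 2442 TPM on day 0 and 1554 to 1651 TPM on day 4. Pou5f1 made up much of this sum, at means of 1112 and 519 TPM. Nanog went the other way, at 184 and 319 TPM, while the other markers of the list averaged lower on day 4. Between the days, 1 of the 7 was called lower in these cells, and in each other condition 1 was called higher. In bulk RNA, fewer cells of a type and less RNA per cell cannot be told apart. Scaling libraries by the median of ratios moved the median of all tested genes by more than 0.1 in several comparisons. That median was -0.10 in the RA response of si-CTL cells without rescue, 0.12 in that with rescue and 0.13 between siRNAs at day 4 without rescue before this scaling, and close to 0 after it.

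Receptor dimers bind direct repeats of a hexamer, and the 250 bases before each RefSeq start site (build GRCm38.p6) were searched for the hexamer AGGTCA, its variant AGTTCA, the hexamer GGGTCA or its variant GGTTCA on both strands, and for pairs of them in the same direction spaced by 1, 2 or 5 bases. Windows were at hand for 8 of the 9 genes, all but Crabp2, with 17 windows in all. A direct repeat was found in the windows of 2 genes, Rarb and Cyp26a1, in both cases spaced by 5 bases. Such a repeat stood in 29 of 32851 windows of the same length over all genes, or 0.0883%. A repeat at any of the spacings searched stood in 140 windows, or 0.426%. At least 1 hexamer stood in 38.6% of all windows and in 4 of the 17 windows of these genes, those of Rarb and Cyp26a1, 1 of Rara and 1 of Rarg. The windows of Rarb and Cyp26a1 are shown for their repeats and that of Meis2, which rose most from day 0 to day 4, because it holds none of the hexamers. Capitals mark the hexamers, and each sequence is read towards the start site.
Rarb, chr14:16575477-16575726, minus strand: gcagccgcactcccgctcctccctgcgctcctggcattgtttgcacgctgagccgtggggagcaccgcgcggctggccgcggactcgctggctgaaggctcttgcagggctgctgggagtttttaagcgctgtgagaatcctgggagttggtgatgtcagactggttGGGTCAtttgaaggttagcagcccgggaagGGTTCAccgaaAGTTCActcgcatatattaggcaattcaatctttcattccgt
Cyp26a1, chr19:37697558-37697807, plus strand: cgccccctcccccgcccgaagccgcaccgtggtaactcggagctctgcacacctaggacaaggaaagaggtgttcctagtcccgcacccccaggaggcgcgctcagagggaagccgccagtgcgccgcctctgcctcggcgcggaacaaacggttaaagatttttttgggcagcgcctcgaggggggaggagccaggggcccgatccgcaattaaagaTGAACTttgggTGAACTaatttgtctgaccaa
Meis2, chr2:116064620-116064869, minus strand: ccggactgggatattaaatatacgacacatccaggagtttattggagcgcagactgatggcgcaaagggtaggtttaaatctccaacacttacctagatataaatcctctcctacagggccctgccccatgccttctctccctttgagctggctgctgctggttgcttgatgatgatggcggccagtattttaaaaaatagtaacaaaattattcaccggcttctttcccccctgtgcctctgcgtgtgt
The Rarb repeat, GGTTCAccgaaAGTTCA, runs from 53 to 37 bases before the start site. The Cyp26a1 repeat reads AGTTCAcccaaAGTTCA on the other strand, 32 to 16 bases before the start site. A match of letters is a description and says nothing of binding, and no binding was measured.

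In day 0 si-CTL cells without rescue, Rarg had the highest level at a mean of 110.0 TPM, followed by Crabp1 (33.4) and Rara (30.4), whose libraries overlapped, then Crabp2 (12.0). Cyp26a1, Dhrs3 and Meis2 lay between 0.976 and 1.79 TPM, and Stra6 and Rarb were at 0.224 and 0.117 TPM. After 4 days of RA the order in si-CTL cells was Crabp1, Crabp2, Rarg, Meis2 and Rara, each with libraries apart from the next, with Cyp26a1 and Dhrs3 overlapping below them and Stra6 and Rarb last. The most abundant of the 9 genes thus changed from a receptor to a carrier protein in these cells. No gene was at 0 in any library. The lowest value was 0.0758 TPM, for Rarb.

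**Figure D1:**
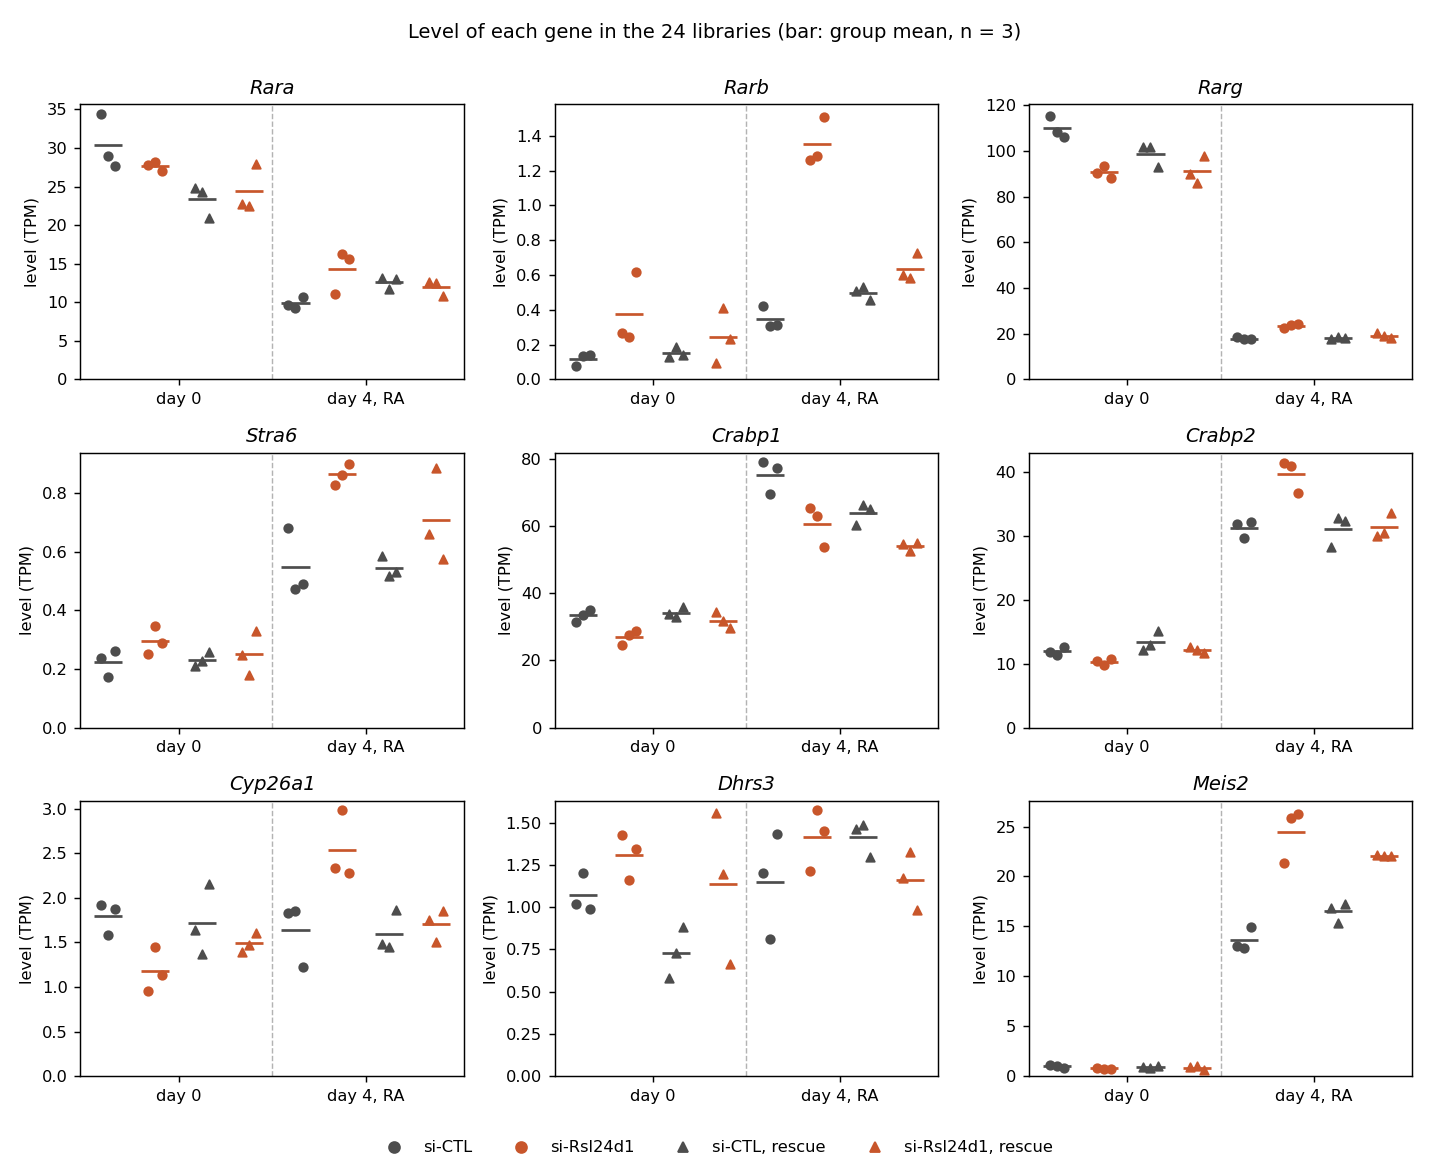
Level in TPM of each of the 9 genes in all 24 libraries, on linear axes that start at 0, with day 0 to the left and day 4 to the right of the dashed line, points for libraries, bars for means of 3, grey for si-CTL, orange for si-Rsl24d1, circles without and triangles with rescue. Rara and Rarg are lower on day 4, Crabp1, Crabp2 and Meis2 are higher, and Cyp26a1 and Dhrs3 keep to similar levels apart from single groups.

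The RA response was the difference between day 4 and day 0 within each siRNA and rescue condition. All day 4 cells had RA and no day 0 cells did. This difference therefore cannot be told apart from days of culture or, per the methods, plating at low density and loss of LIF. In si-CTL cells without rescue, 5 of the 9 genes were called, against 15.0% of all tested genes, with Meis2, Crabp2 and Crabp1 higher and Rarg and Rara lower. The median change over the 9 genes was 0.27, against -0.10 over all tested genes. In the other conditions 5 genes were called with si-Rsl24d1 without rescue (14.1% of all tested genes), 4 with si-CTL and rescue (15.6%) and 4 with si-Rsl24d1 and rescue (14.9%). By adjusted p alone, without the fold threshold, 6, 8, 8 and 7 of the 9 genes passed, against 60.9%, 55.8%, 59.2% and 58.1% of all tested genes in the same order.

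Rarg (chr15:102234938-102257517, minus strand), the receptor that dominates in undifferentiated cells, fell more than any other of the 9 genes. In si-CTL cells without rescue it was at 115, 108 and 106 TPM on day 0 and at 18.4, 17.5 and 17.6 TPM on day 4, a level 6.16 times lower. The libraries of the days lay far apart, and the log2 change was -2.56 ± 0.05 (SE of the limma fit, adjusted p 3.27e-18 in limma). The SE of this and later log2 changes rests on a spread estimated over all 8 groups of 3 libraries. The fall was called in all 4 conditions, at -1.91 with si-Rsl24d1 without rescue, -2.39 with si-CTL and rescue and -2.20 with si-Rsl24d1 and rescue.

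Rara (chr11:98927818-98974942, plus strand), which is expressed in most tissues, had 34.4, 29.0 and 27.7 TPM on day 0 and 9.66, 9.26 and 10.7 TPM on day 4 in si-CTL cells without rescue. Day 4 libraries were all lower, with a log2 change of -1.53 ± 0.12 (adjusted p 5.75e-10 in limma) and a ratio of 3.08. In the other 3 conditions the change was smaller, and its size lay near the fold threshold. It was -0.92 with si-Rsl24d1 without rescue and -0.96 with si-Rsl24d1 and rescue, both called, and -0.84 with si-CTL and rescue, not called (adjusted p 2.65e-06 in limma). Without replicate 1 of the day 4 libraries labelled si-Rsl24d1 the first of these was -0.76 and no longer called, and with median of ratios scaling the last was -0.97 and called.

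Rarb (chr14:16430839-16819156, minus strand), a classic early target of RA whose promoter carries the repeat shown above, was the least expressed receptor. It had 0.0758, 0.137 and 0.139 TPM on day 0 and 0.421, 0.309 and 0.315 TPM on day 4 in si-CTL cells without rescue. All day 4 libraries lay above all day 0 libraries, at a TPM ratio of 2.97, but at these levels the change of log2(TPM + 1) was 0.27 ± 0.09 and not called (adjusted p = 0.0156 in limma). The TPM ratio was 3.61 with si-Rsl24d1 without rescue, 3.33 with si-CTL and rescue and 2.61 with si-Rsl24d1 and rescue. When 0.1 and not 1 was added to the TPM, the rise was called in all 4 conditions, at 1.05 in si-CTL cells without rescue and 1.69 with si-Rsl24d1 without rescue. Of the 5265 exonic bases of Rarb, 2020 lie opposite exons of the overlapping genes Top2b and Gm48162, so counting without strand could not separate them, and the strand setting is not given in the sources used here.

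Together the receptor transcripts summed to 140.5 ± 8.38 TPM on day 0 and 28.1 ± 0.84 TPM on day 4 (SD, n = 3) in si-CTL cells without rescue. Rarg made up 78.3% ± 1.17 of the sum on day 0 and 63.6% ± 1.76 on day 4, and Rara 21.6% ± 1.20 and 35.1% ± 1.89. Rarb made up 0.0846% and 1.24% of the sum. The highest Rarb share of any group was 3.47% ± 0.30, in day 4 libraries labelled si-Rsl24d1 without rescue. These shares describe transcripts and were not tested.

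**Figure D2:**
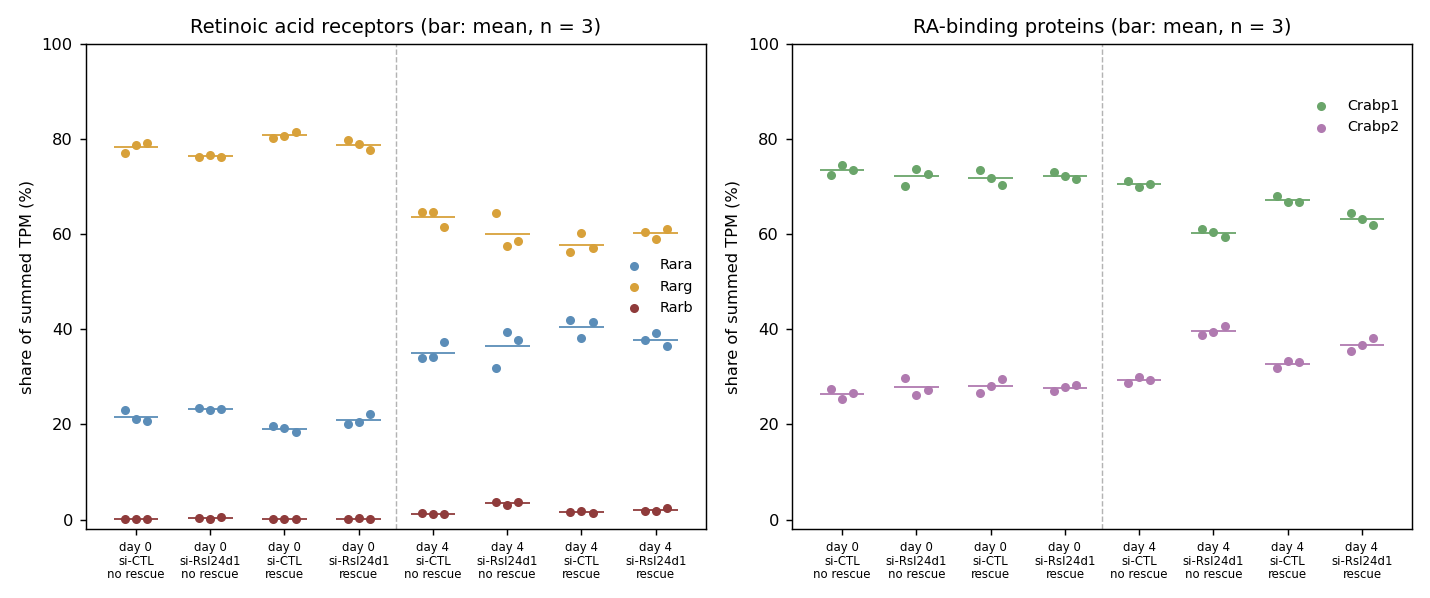
Share in percent of the summed TPM of the 3 RA receptors (left) and the 2 RA-binding proteins (right) in each library of the 8 groups, with bars at the mean of 3. On day 4 the share of Rarg is lower and that of Rara higher in every group, and the share of Crabp2 is highest, at 39.7%, in libraries labelled si-Rsl24d1 without rescue.

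The carriers and the transporter were all higher on day 4. Crabp2 (chr3:87948666-87953376, plus strand), which delivers RA to the receptors in the nucleus, was at 11.9, 11.4 and 12.7 TPM on day 0 and 31.9, 29.7 and 32.2 TPM on day 4 in si-CTL cells without rescue. The groups did not overlap, and the rise of 1.31 ± 0.07 in log2 was called (adjusted p 7.23e-12 in limma), as it was in the other 3 conditions at 1.84, 1.16 and 1.30. Crabp1 (chr9:54764748-54773110, plus strand), linked to the turnover of RA in the cytoplasm, went from 31.5, 33.5 and 35.1 TPM to 79.0, 69.4 and 77.1 TPM. Its rise of 1.15 ± 0.07 was called without rescue under either siRNA. With rescue it was 0.88 for si-CTL, called, and 0.74 for si-Rsl24d1, not called (adjusted p 3.06e-08 in limma), and with median of ratios scaling the si-CTL value became 0.74 and was not called either.

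Stra6 (chr9:58063788-58153996, plus strand), the cell-surface receptor that takes up retinol, was at 0.239, 0.172 and 0.260 TPM on day 0 and 0.683, 0.474 and 0.491 TPM on day 4 in si-CTL cells without rescue. Day 4 libraries were all higher, at a TPM ratio of 2.46, with a change of 0.34 ± 0.07 on the log2(TPM + 1) scale that did not pass the fold threshold (adjusted p 0.000335 in limma). The TPM ratio was 2.92, 2.36 and 2.81 in the other 3 conditions. With 0.1 added to the TPM the rise was called in all 4 conditions, at 0.96 to 1.29.

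Neither clearance enzyme was called in any condition with 1 added to the TPM. Cyp26a1 (chr19:37697798-37701536, plus strand), which oxidises RA for removal and is a well-known early RA target, was at 1.92, 1.59 and 1.87 TPM on day 0 and at 1.83, 1.85 and 1.22 TPM on day 4 without rescue. These libraries overlapped, and the log2 change was -0.09 with a 95% interval from -0.34 to 0.16 (adjusted p = 0.508 in limma). With si-CTL and rescue it was -0.06, with an interval from -0.31 to 0.19. With si-Rsl24d1 without rescue Cyp26a1 went from 0.959, 1.45 and 1.13 TPM to 2.34, 2.98 and 2.29 TPM, a ratio of 2.15 with no overlap, where both a lower start and a higher end entered. That change of 0.70 ± 0.12 passed the adjusted p (3.42e-05 in limma) but not the fold threshold, which it passed at 1.05 with 0.1 added to the TPM.

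Dhrs3 (chr4:144892827-144928209, plus strand), which returns retinal to retinol and so holds back RA synthesis, was at 1.02, 1.20 and 0.989 TPM on day 0 and 1.20, 0.810 and 1.43 TPM on day 4 in si-CTL cells without rescue. The days overlapped, with a log2 change of 0.04 and a 95% interval from -0.22 to 0.31. Only with si-CTL and rescue were all day 4 libraries higher, at 1.47, 1.49 and 1.30 TPM against 0.578, 0.729 and 0.881 TPM. The change there was 0.49 ± 0.13 (adjusted p = 0.0023 in limma), below the fold threshold, which it passed at 0.88 with 0.1 added to the TPM. Samples on day 4 only cannot show whether either enzyme moved earlier in the 4 days.

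Meis2 (chr2:115863064-116065839, minus strand), a homeobox cofactor of Hox proteins, had the largest change of the 9 genes. In si-CTL cells without rescue it was at 1.11, 1.01 and 0.812 TPM on day 0 and at 13.1, 12.8 and 15.0 TPM on day 4, a ratio of 14.0. With si-Rsl24d1 without rescue it went from 0.859, 0.740 and 0.712 TPM to 21.4, 25.9 and 26.3 TPM, a ratio of 31.8. The log2 changes were 2.89 ± 0.09 and 3.84 ± 0.09 (adjusted p 1.24e-15 and 1.82e-17 in limma), and 3.19 and 3.66 with rescue for si-CTL and si-Rsl24d1.

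**Figure D3:**
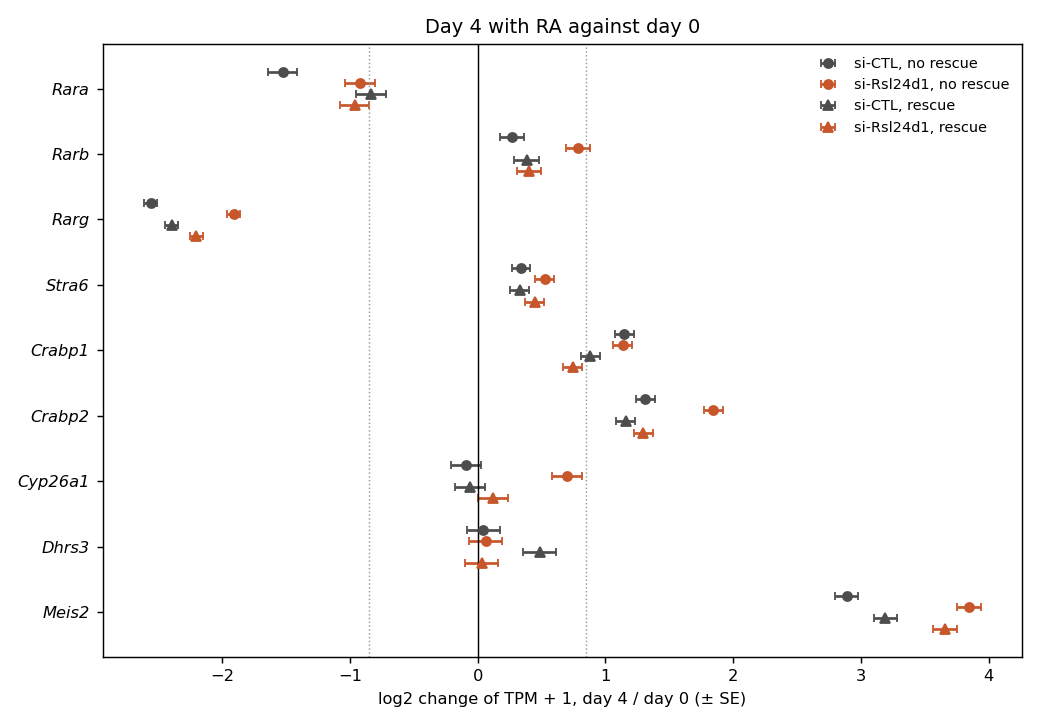
Change of log2(TPM + 1) from day 0 to day 4 for each of the 9 genes in the 4 conditions, with standard errors of the limma fit as bars and the 1.8-fold threshold as dotted lines. Meis2 and Crabp2 lie above and Rarg lies below the threshold in all 4 conditions, and Cyp26a1 departs from 0 beyond its error bar mainly with si-Rsl24d1 without rescue.

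At day 0, the knockdown of Rsl24d1 was compared with si-CTL. None of the 9 genes was called by limma without rescue, against 4.18% of all tested genes, while 5 of the 9 and 47.6% of all tested genes had an unadjusted p below 0.05. On adjusted p alone, 2 of the 9 passed, against 30.4% of all tested genes, both slightly lower. In the same comparison summed pluripotency markers were at 1730.2 to 1769.8 TPM with si-Rsl24d1 and 2389 to 2442 TPM with si-CTL. Of 7 such markers 2, Zfp42 and Esrrb, were called lower. Mesoderm markers moved in both directions, with 1 of 4, Twist1, called higher. T was lower, at 5.56, 9.14 and 6.31 TPM against 12.9, 13.5 and 12.1 TPM with si-CTL. Hand1 (mean 19.9 against 14.0 TPM) and Kdr (0.778 against 0.546 TPM) were higher, and none of these others was called. The part of all these markers in the values of the 9 genes was not tested. Rarg was at 90.4, 93.6 and 88.0 TPM against 115, 108 and 106 TPM with si-CTL (log2 change -0.28 ± 0.05, adjusted p 0.000214 in limma). Crabp1 was at 24.6, 27.5 and 28.9 TPM against 31.5, 33.5 and 35.1 TPM (-0.30 ± 0.07, adjusted p = 0.00312 in limma). Neither gene's groups overlapped. Cyp26a1 was at 0.959, 1.45 and 1.13 TPM against 1.92, 1.59 and 1.87 TPM, again without overlap, but its change of -0.36 had an adjusted p of 0.0192 in limma.

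Rarb stood out at day 0 by its TPM ratio, at 0.264, 0.243 and 0.617 TPM with si-Rsl24d1 against 0.0758, 0.137 and 0.139 TPM with si-CTL, or 3.20 times. All libraries lay apart, yet its change of 0.29 was not called (adjusted p = 0.0187 in limma). It was called at 1.06 with 0.1 added to the TPM, and was 0.17 without si-Rsl24d1 replicate 3, the library at 0.617 TPM. The change of Meis2 was -0.16, with a 95% interval from -0.35 to 0.04, that of Crabp2 was -0.19 (adjusted p = 0.0442 in limma) without overlap, and those of Rara, Stra6 and Dhrs3 lay between -0.12 and 0.16, with overlapping libraries. With rescue at day 0, 0 of the 9 genes were called by limma against 1.36% of all tested genes, 2 had an unadjusted p below 0.05 (32.8% of all tested genes), and the changes lay between -0.13 and 0.29.

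At day 4 without rescue, 0 of the 9 genes were called between libraries labelled si-Rsl24d1 and si-CTL by limma, against 1.63% of all tested genes. By adjusted p alone, however, 8 of the 9 passed, against 30.9% of all tested genes, 7 of them higher and Crabp1 lower, and these 8 also had an unadjusted p below 0.05, as had 53.1% of all tested genes. With median of ratios scaling, Crabp2 (adjusted p = 0.14), Cyp26a1 (adjusted p = 0.0395) and Stra6 (adjusted p = 0.0271) no longer passed in limma. With only the compared groups in the fit, Rara, Stra6, Crabp1, Crabp2 and Cyp26a1 did not pass either (adjusted p 0.015 to 0.055 in limma), while Rarb, Rarg and Meis2 passed under both. Every one of the 8 had libraries that did not overlap between the siRNA labels. The share of all tested genes without overlap was not counted, so this does not set the 8 apart. The median change over the 9 genes was 0.37, against 0.13 over all tested genes.

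Meis2 came closest to the call at day 4, at 21.4, 25.9 and 26.3 TPM against 13.1, 12.8 and 15.0 TPM. All libraries labelled si-Rsl24d1 were higher, at a ratio of 1.8 in TPM and a log2 change of 0.80 ± 0.09 (adjusted p 2.16e-06 in limma). It was called without si-CTL replicate 3 (0.87) or without si-Rsl24d1 replicate 1 (0.89), and was 0.65 with median of ratios scaling. Rarb was at 1.26, 1.29 and 1.51 TPM against 0.421, 0.309 and 0.315 TPM, 3.88 times higher, with a log2 change of 0.80 ± 0.09 (adjusted p 3.10e-06 in limma). With 0.1 added to the TPM its change was 1.70 and called.

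Changes of the other receptors and carriers at day 4 were smaller. Rara was at 11.1, 16.2 and 15.7 TPM against 9.66, 9.26 and 10.7 TPM (0.48 ± 0.12, adjusted p = 0.0026 in limma), and 1 of its libraries lay close to the si-CTL values. Rarg was at 22.3, 23.6 and 24.2 TPM against 18.4, 17.5 and 17.6 TPM (0.37 ± 0.05, adjusted p 1.95e-05 in limma), or 0.22 with median of ratios scaling. Crabp2 was at 41.5, 41.0 and 36.8 TPM against 31.9, 29.7 and 32.2 TPM (0.34 ± 0.07, adjusted p = 0.00138 in limma), or 0.18 when scaled so. Crabp1 moved the other way, at 65.3, 62.9 and 53.7 TPM against 79.0, 69.4 and 77.1 TPM (-0.31 ± 0.07, adjusted p = 0.00259 in limma), or -0.47 when scaled so. Crabp2 made up 39.7% ± 0.93 of the summed carriers in libraries labelled si-Rsl24d1 and 29.4% ± 0.60 with si-CTL.

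Among the uptake and clearance genes, Stra6 was at 0.829, 0.861 and 0.901 TPM against 0.683, 0.474 and 0.491 TPM at day 4 (0.27 ± 0.07, adjusted p = 0.00539 in limma). Cyp26a1 was at 2.34, 2.98 and 2.29 TPM against 1.83, 1.85 and 1.22 TPM (0.43 ± 0.12, adjusted p = 0.0068 in limma). The libraries of both genes lay apart. Dhrs3 overlapped between the labels, with a change of 0.18 and a 95% interval from -0.09 to 0.44.

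Some markers of other cell types moved with the siRNA label at day 4 without rescue. Summed mesoderm markers were at 12.0 to 12.5 TPM with si-CTL and 29.3 to 34.3 TPM in libraries labelled si-Rsl24d1. Of 4 tested markers 2 were called higher, among them Twist1 (log2 change 1.51). T hardly differed, at means of 0.471 and 0.563 TPM in the same order. Extraembryonic endoderm markers summed to 15.2 to 19.9 and 30.5 to 38.6 TPM, with 2 of 5 tested markers called higher, Gata6 and Dab2. Fibroblast markers summed to 90.6 to 99.5 and 170.5 to 239 TPM, with Col1a1 and Col3a1 called of 5. The others differed less, at means of 42.4 and 52.0 TPM for Col1a2, 2.24 and 2.61 for Pdgfrb and 1.79 and 1.87 for Thy1. The median change of these 5 was 0.28, against 0.13 over all tested genes. Neural markers summed to 37.2 to 37.6 and 49.3 to 60.6 TPM, with Nes called of 5 tested. The neural markers did not move together. In the same order, mean levels were 7.82 and 19.0 TPM for Nes and 15.8 and 24.9 TPM for Tubb3. Pax6 was lower, at 9.53 and 7.72 TPM, and Sox1 (1.75 and 1.77) and Map2 (2.28 and 2.40) hardly differed. The median change of the 5 was 0.06, against 0.13 over all tested genes. Mesp1 was below 0.1 TPM in both of these groups. Pluripotency markers summed to 1554 to 1651 and 1555 to 1689 TPM, with 0 of 7 called by limma. The part of these cells in the values of the 9 genes was not tested.

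**Figure D4:**
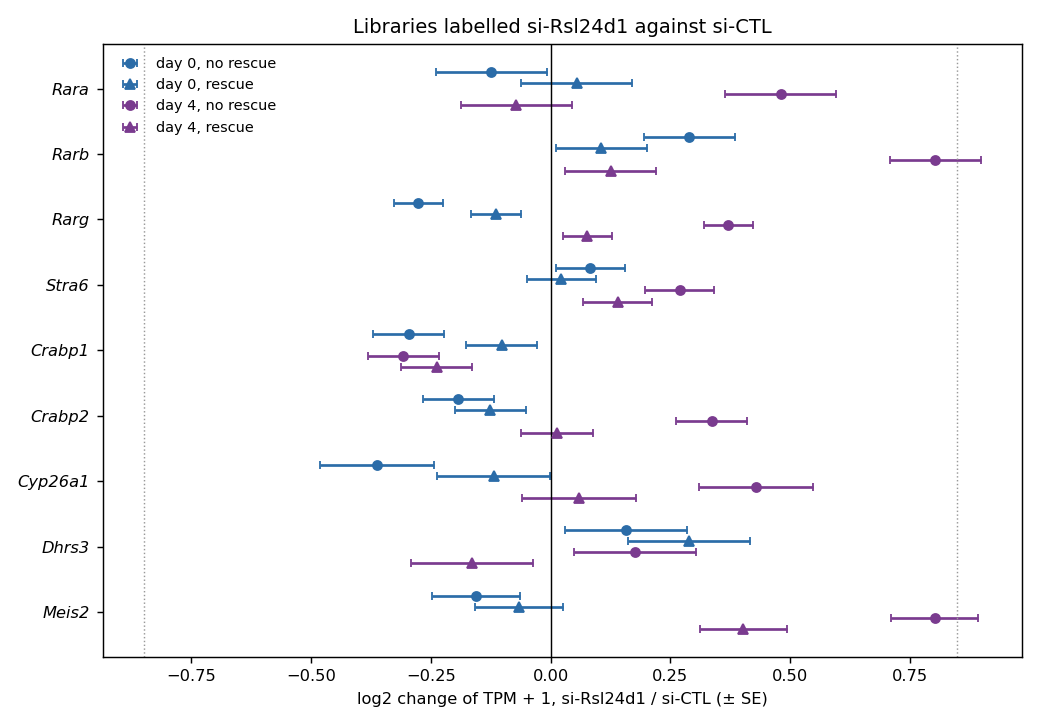
Change of log2(TPM + 1) between libraries labelled si-Rsl24d1 and si-CTL for each of the 9 genes at day 0 (blue) and day 4 (purple), without (circles) and with rescue (triangles), with standard errors of the limma fit and the 1.8-fold threshold as dotted lines. No point passes the threshold, and the day 4 points without rescue lie above 0 for all genes but Crabp1, with Rarb and Meis2 at 0.80.

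With rescue at day 4, 0 of the 9 genes were called by limma, against 0.730% of all tested genes, and 2 had an unadjusted p below 0.05 (25.5% of all tested genes). Meis2 was the 1 of the 9 that passed on adjusted p alone, against 5.87% of all tested genes. Meis2 was at 22.2, 22.0 and 22.1 TPM against 16.8, 15.4 and 17.3 TPM with si-CTL and rescue, a change of 0.40 ± 0.09 without overlap (adjusted p = 0.00629 in limma). The change of Rarb was 0.13 with rescue, with a 95% interval from -0.07 to 0.32, that of Rara was -0.07 (-0.31 to 0.17), and that of Crabp2 was 0.01 (-0.14 to 0.17).

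Libraries with and without rescue were compared within each siRNA and day. They differed in doxycycline, in ectopic Rsl24d1 and, per the labels, in the vector, and these cannot be told apart. In day 0 si-CTL cells Rsl24d1 averaged 151 TPM with and 141 TPM without rescue, with overlap (adjusted p = 0.286 in limma). In day 0 si-Rsl24d1 cells it averaged 107 and 35.7 TPM. With rescue it stayed below si-CTL there (log2 change -0.50, adjusted p 2.19e-05 in limma). At day 4 it averaged 118 and 97.9 TPM with si-CTL and 131 and 95.1 TPM in libraries labelled si-Rsl24d1. In si-CTL cells 0 of the 9 genes were called by limma at day 0 (0% of all tested genes) and at day 4 (0.0547%), with 2 and 3 at an unadjusted p below 0.05 (41.0% and 39.0% of all tested genes). With si-Rsl24d1, 0 were called at day 0 (0.280%) and at day 4 (0.0851%), with 2 and 5 at an unadjusted p below 0.05 (42.9% and 24.2%). By adjusted p alone 3 of the 9 were lower with rescue in day 4 libraries labelled si-Rsl24d1, against 5.17% of all tested genes. Rarb was at 0.601, 0.582 and 0.724 TPM with rescue against 1.26, 1.29 and 1.51 TPM without (-0.52 ± 0.09, adjusted p = 0.00127 in limma). The change was -0.28 ± 0.05 for Rarg (adjusted p = 0.00129 in limma) and -0.33 ± 0.07 for Crabp2 (adjusted p = 0.00667 in limma), while the change of Meis2 was -0.14 ± 0.09 (adjusted p = 0.383 in limma).

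Whether the siRNA effect differed between days was tested as an interaction. Without rescue, 1 of the 9 genes was called, Meis2, against 5.61% of all tested genes, with a difference of 0.96 ± 0.13 between the day 4 and day 0 effects (adjusted p 9.22e-06 in limma). With median of ratios scaling that difference was 0.80 and not called. By adjusted p alone 6 of the 9 passed, against 30.9% of all tested genes. Besides Meis2 these were Cyp26a1 at 0.79, Rarg at 0.65, Rara at 0.60, Crabp2 at 0.53 and Rarb at 0.51, all with a higher effect on day 4 than on day 0. With 0.1 added to the TPM the Rarb value was 0.64 (adjusted p = 0.233 in limma). With rescue, 0 genes were called by limma (2.10% of all tested genes), with 3 at an unadjusted p below 0.05 (29.4% of all tested genes).

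The interaction of siRNA and rescue gave 0 calls by limma at day 0 (0.128% of all tested genes) and at day 4 (0.511%), with 1 and 6 of the 9 genes at an unadjusted p below 0.05, as were 17.6% and 41.6% of all tested genes. There were 2 genes that passed on adjusted p alone at day 4, against 8.95% of all tested genes. The siRNA effect with rescue minus that without was -0.68 ± 0.13 for Rarb (adjusted p = 0.00297 in limma) and -0.29 ± 0.07 for Rarg (adjusted p = 0.00875 in limma). With median of ratios scaling the Rarg value was -0.09 (adjusted p = 0.235 in limma) and that of Rarb -0.59 (adjusted p = 0.00822 in limma).

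The surrounding pathway was read in 49 other genes, of which 40 passed the filter. In the RA response of si-CTL cells without rescue, 10 of the 40 rose and 6 fell, against 15.0% of all tested genes called. In the other RA responses 9 rose and 3 fell with si-Rsl24d1 without rescue (14.1% of all tested genes called). With rescue, 12 rose and 3 fell with si-CTL (15.6%), and 12 rose and 4 fell with si-Rsl24d1 (14.9%). Among RA-induced genes outside the 9, 7 of 12 tested rose and none of the 12 fell by the call. The largest rises were those of Meis1 (0.505 to 8.23 TPM, log2 change 2.62), the paralog of Meis2, of Nr2f1 (0.0516 to 4.17 TPM, 2.29), an orphan receptor of developing neural tissue, and of Stra8 (3.43 to 16.4 TPM, 1.97), a gatekeeper of meiosis. Both paralogs of Cyp26a1 rose, Cyp26b1 from 0.0419 to 1.43 TPM (1.22) and Cyp26c1 from 0.0965 to 1.39 TPM (1.13). The adjusted p of each of these 5 was below 0.01 in limma.

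Synthesis, storage and partner genes moved in both directions between day 0 and day 4. Of 3 retinoid X receptors, the partners of RA receptors, Rxrg fell from 1.32 to 0.110 TPM (log2 change -1.07), while Rxra was at 5.69 and 9.10 TPM (0.60) and Rxrb, the most abundant, at 35.3 and 28.4 TPM (-0.30), neither called. Of 7 tested synthesis genes 1 was called, Aldh1a3, which makes RA from retinal and fell from 3.46 to 1.12 TPM. The retinol carrier Rbp4 rose from 2.07 to 5.45 TPM and Rbp7 fell from 4.24 to 1.56 TPM. Of 10 coactivators and corepressors, 3 fell, Ep300 (36.9 to 17.8 TPM), Crebbp (5.46 to 2.19 TPM) and Ncoa3 (45.3 to 24.0 TPM). The median over these 10 was -0.60, against -0.10 over all tested genes. This was seen in 1 of the 4 RA responses: with si-CTL and rescue the median was 0.15 against 0.12 over all tested genes, and with si-Rsl24d1 it was -0.17 against 0.02 without and -0.03 against 0.06 with rescue, each with 1 of the 10 called higher and 0 called lower by limma.

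**Figure D5:**
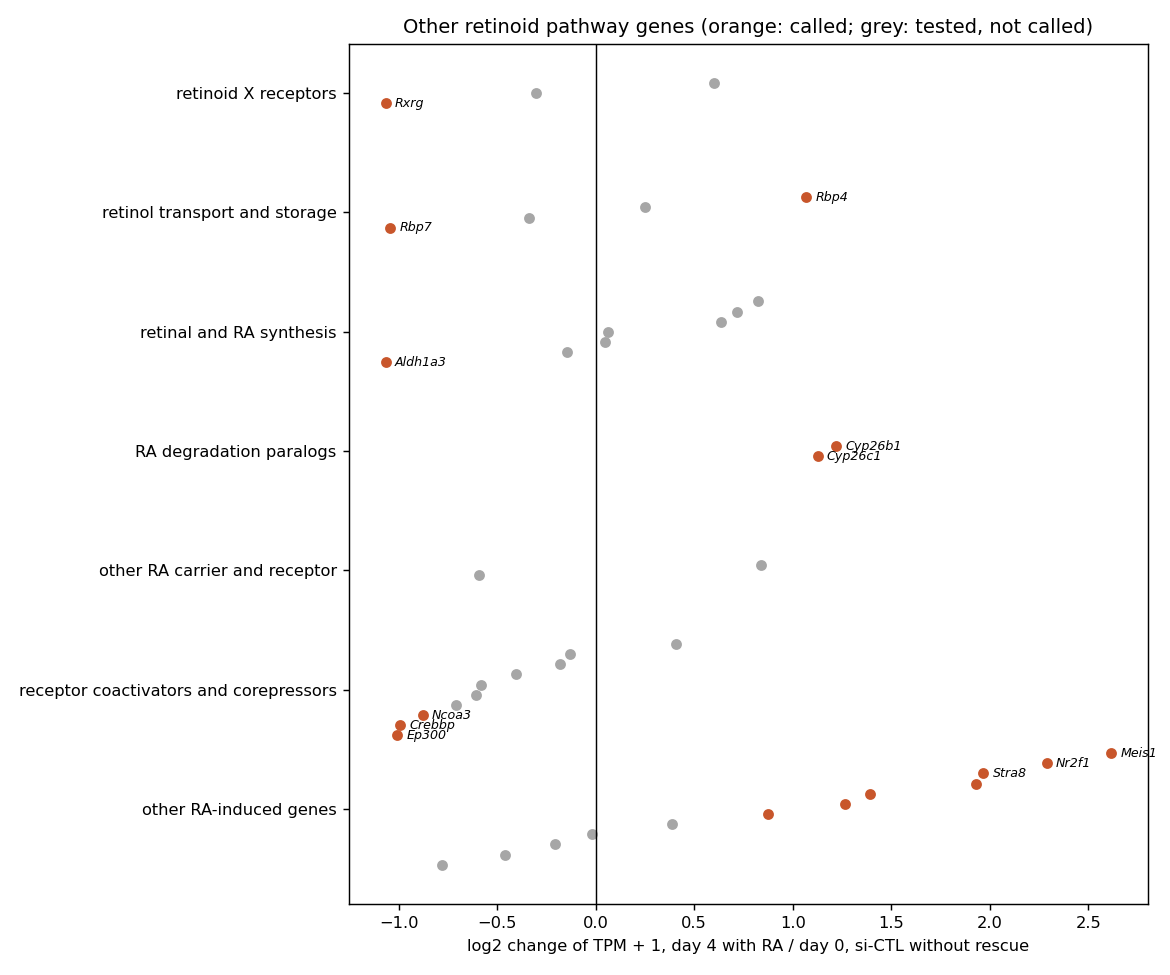
Change of log2(TPM + 1) from day 0 to day 4 in si-CTL cells without rescue for the 40 tested pathway genes outside the 9, by role, with called genes in orange, the others in grey, and at most 3 called genes named per role and direction. RA-induced genes hold the largest rises, up to 2.62 for Meis1, and called coactivators lie below 0.

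With si-Rsl24d1 at day 0 without rescue, 4 of the 40 pathway genes were called, 3 higher and 1 lower, against 4.18% of all tested genes. Of the 12 RA-induced genes tested 1 was higher and 1, Stra8, lower. Ppard, a nuclear receptor that can also bind RA, rose from 10.6 to 24.7 TPM (log2 change 1.14, adjusted p 2.34e-11 in limma) in cells that had received no RA, and Rbp7 rose from 4.24 to 10.0 TPM (1.08). Stra8 fell from 3.43 to 1.42 TPM. With rescue the changes of Ppard and Rbp7 were 0.76 and 0.91, of which the last was called, and that of Stra8 was -0.31. None of the 9 genes described above was called in the same comparison.

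At day 4 without rescue, 3 of the 40 were called between the siRNA labels, against 1.63% of all tested genes. Meis1 was at 8.23 TPM with si-CTL and 18.9 TPM in libraries labelled si-Rsl24d1 (log2 change 1.10, adjusted p 1.61e-08 in limma), and Nr2f1 at 4.17 and 9.92 TPM (1.08). Fabp5, a carrier that hands RA to Ppard, was lower, at 114 and 57.7 TPM (-0.97, adjusted p 2.96e-09 in limma). Cyp26c1 was at 1.39 and 0.540 TPM (-0.63), not called. With rescue the changes were 0.57 for Meis1, 0.61 for Nr2f1 and -0.43 for Fabp5, none of them called.

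For each of the 9 genes, the closest profiles over the 8 group means were found by the root mean square (RMS) difference of centred log2(TPM + 1) values. Rarg was most like Psors1c2 (RMS 0.09) and Dnmt3b (0.11), a DNA methyltransferase of early embryonic cells, over a range of 2.56. Meis2 was most like Rhox6 (0.15) and Postn (0.18), a matrix protein, over a range of 3.84. Crabp1 was most like Snhg6 (0.05) and Nenf (0.07), and Crabp2 most like Tmem37 (0.10) and Nup62cl (0.10). Rara was closest to Chrm4 and Hcfc1 (0.06 each), and Rarb to Ehd2 (0.06) and Smarca2 (0.08). Cyp26a1 was closest to Slc26a11 (0.07) and Pik3cd (0.08), Dhrs3 to Numbl and Ccdc117 (0.04 each) and Stra6 to Isl1 and Umad1 (0.04 each), over ranges of 0.70, 0.49 and 0.61, where many genes vary as little. Likeness over 8 points from the same libraries is a description.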

How the data were processed

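The authors quantified the reads per transcript, summarised them per gene and deposited log2 values, log2(TPM + 1), in which TPM sum to 1000000 in every library. The depth is therefore unknown, and no count test or counting interval was possible. The precision rests on 3 libraries per group and on a spread shared by the 8 groups. The submitters' processing notes list STAR 2.7.8a, Salmon 1.4.0 and the build GRCh38, whereas the study's methods give other versions, a mouse build and a stranded total-RNA kit in place of the poly-A kit of the labels, and the sample descriptions give 48 h where the protocol gives 72 h. These conflicts could not be settled.

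Groups and comparisons were taken from the labels. Limma 3.58.1 in R 4.3.3 was fitted with 8 group means and an intensity trend over 16447 genes that averaged 0.5 or more, with Benjamini-Hochberg adjustment within each of 16 comparisons, all two-sided. The script was tested on simulated data. The genes, lists and tests were chosen with earlier results of these data known. Besides the 9 genes and Rsl24d1, the text names at most 3 called genes per pathway role and direction in 3 comparisons, the 2 genes of most similar profile, and markers that moved. Rxra, Rxrb and the day 4 siRNA values of Cyp26c1 fall outside this rule and were chosen after their values were seen, and 1 called pathway gene is not reported here. Promoters came from RefSeq, positions from gencode vM21 on GRCm38. No library was identical to another. Of 84 pairs of libraries with the same replicate number in different groups, 4 had residuals correlated above 0.1, against 17 of 168 pairs of different number. No shared deviation by number was thus seen, which cannot tell whether samples were handled in pairs. Alternatives were another number added to the TPM, other filters, only the groups compared, a replicate block, median of ratios scaling, no fold threshold, no trend, and each library left out.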

Additional observations from a re-analysis of the deposited data

Results flagged for a closer look

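Differences between the siRNA effects on day 4 and day 0, without rescue, passed an adjusted p below 0.01 in limma for 6 of the 9 genes. On adjusted p alone 30.9% of all tested genes passed too. The differences were 0.96 for Meis2, 0.79 for Cyp26a1, 0.65 for Rarg, 0.60 for Rara, 0.53 for Crabp2 and 0.51 for Rarb. Each effect was higher on day 4 (adjusted p in limma from 9.83e-07 for Rarg to 0.00578 for Rara). All but Rarb were below 0 on day 0 and above 0 on day 4, though for Meis2 and Rara the day 0 libraries of both siRNAs overlapped. With median of ratios scaling Crabp2 (adjusted p = 0.0344) and Rarb (adjusted p = 0.0113) did not pass in limma, nor did Rara (adjusted p = 0.0188) and Rarb (adjusted p = 0.0171) with only the compared groups in the fit. The siRNA effect on Rsl24d1 itself was -1.95 on day 0 and -0.04 on day 4, and the median of all tested genes in the same interaction was 0.14 before and 0.01 after median of ratios scaling. The siRNA effect at day 4 differed with the rescue for Rarb (-0.68, adjusted p = 0.00297 in limma) and Rarg (-0.29, adjusted p = 0.00875 in limma), where the median of all tested genes was -0.17. On adjusted p alone 8.95% of all tested genes passed there. The Rarg value did not pass with median of ratios scaling (-0.09, adjusted p = 0.235) or with the replicate block (adjusted p = 0.0146), both in limma. No group was tested for outlying libraries, since each held 3.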

How the results depend on the processing

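Values of the 9 genes under the alternatives were counted for all RA responses and siRNA effects. Rescue comparisons and interactions were counted only where the main adjusted p in limma was below 0.01, so sign changes in the rest are not included. Of 1257 such values, 1187 kept their direction and side of the threshold, 55 passed it newly, 3 no longer passed it and 12 changed sign. Of the 55, 32 came from removing the fold threshold itself. With 0.1 added to the TPM, 8 of the 9 genes were called in the RA response of si-Rsl24d1 cells without rescue and 8 in that of si-CTL cells with rescue, 1 between siRNAs at day 0 and 1 at day 4 without rescue, and 2 in siRNA by day. The share of all tested genes called with 0.1 added was not computed, so these counts have no background. With median of ratios scaling 0 were called in siRNA by day by limma. Without the fold threshold, 8, 8 and 7 were called in the RA responses of si-Rsl24d1 cells without rescue, si-CTL cells with rescue and si-Rsl24d1 cells with rescue, 2 and 8 between siRNAs at day 0 and day 4 without rescue, 1 at day 4 with rescue, 3 for rescue in si-Rsl24d1 cells at day 4, 6 in siRNA by day and 2 in siRNA by rescue at day 4. The shares of all tested genes that passed without the fold threshold stand beside the same counts in the Results. Leaving out 1 library gave 1 to 2 calls in siRNA by day (2 without si-Rsl24d1 replicate 2 of day 0 or si-CTL replicate 2 of day 4) and 0 to 1 between siRNAs at day 4.

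The sign changes counted were of values near 0. When 1 library was left out, the RA response ranged from -0.15 to 0.027 for Cyp26a1 and -0.051 to 0.16 for Dhrs3 in si-CTL cells without rescue, -0.16 to 0.051 for Cyp26a1 in si-CTL cells with rescue, and -0.14 to 0.17 for Dhrs3 in si-Rsl24d1 cells with rescue, where median of ratios scaling gave -0.011. With rescue, the siRNA effect ranged at day 0 from -0.045 to 0.11 for Rara, -0.022 to 0.065 for Stra6 and -0.13 to 0.034 for Meis2, and at day 4 from -0.053 to 0.053 for Crabp2. The cause was not tested.

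Samples with the same replicate number did not deviate together on average: the mean correlation of residuals was -0.0173 over 84 such pairs and 0.00865 over 168 pairs of different number. With a replicate block 5 of the 9 genes were called in the RA response of si-CTL cells without rescue, and the block changed no call by adjusted p and fold. By adjusted p alone in limma, the block took Rarg in siRNA by rescue at day 4 to 0.0146, Cyp26a1 between siRNAs at day 4 to 0.0109 and Meis2 there with rescue to 0.0121. Other passes on adjusted p alone were lost too. Median of ratios scaling took Crabp1 between siRNAs at day 0 to 0.0193, Crabp2 for rescue in si-Rsl24d1 cells at day 4 to 0.114, Crabp2 and Rarb in siRNA by day to 0.0344 and 0.0113, and Dhrs3 in the RA response of si-CTL cells with rescue to 0.0101. With only the compared groups in the fit, Rarb, Rarg and Crabp2 for rescue in si-Rsl24d1 cells at day 4 were at 0.0406, 0.0813 and 0.0784, Rara and Rarb in siRNA by day at 0.0188 and 0.0171, Rarg in siRNA by rescue at day 4 at 0.0185, Crabp1 between siRNAs at day 0 at 0.0165 and Rarb in the RA response of si-Rsl24d1 cells with rescue at 0.0145. The unknown depth limits what can be said of Rarb and Stra6, both mostly below 1 TPM.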
